A study of Mus musculus with 6 samples.

Results

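The genes described here make up the DNA replication and S-phase machinery, 48 genes chosen by symbol for their known roles from the 27179 gene IDs of the count table. All 48 symbols matched 1 gene ID each. They cover 8 roles, namely origin licensing (12 genes), helicase activation (6), polymerases and primase (8), the sliding clamp and its loader (6), single-strand binding and flap processing (5), nucleotide supply (4), cyclin E and E2F factors (4) and chromatin assembly (3). RNA sequencing was done on osteoblasts, the bone-forming cells, from the skull vault of C57Bl/6J pups aged 5 days. The cells were sorted on GFP from a transgene under Osteocalcin-Cre, a recombinase active in maturing osteoblasts, and the labels state that both genotypes were handled alike. A group of 3 libraries, titled Flox, is labelled as a conditional knockout of Cdc73 (Hrpt2), which encodes parafibromin of the Paf1 transcription elongation complex, and 3 are labelled wildtype. The labels do not say which exons were deleted or whether wildtype pups carried the Cre. Nor do they say whether a library is 1 pup or a pool, so p-values measure only how these samples spread, part of which may be technical.

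Before S phase, the origin recognition complex, Cdc6 and Cdt1 load the ring of Mcm2 to Mcm7 onto DNA, and geminin (Gmnn) blocks reloading afterwards. Cdc45 and the GINS complex turn the ring into an active helicase, after which primase and DNA polymerases alpha, delta and epsilon copy the strands with the clamp PCNA. Many of these genes are switched on at the G1 to S transition by E2F factors, while mitotic genes peak later and are controlled through another promoter element, the CHR. In the growing skull, dividing cells are mostly preosteoblasts, and osteoblasts divide less as they mature.

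Library totals ranged from 13591925 to 20993962 counts, and every one of the 48 genes had counts in all 6 libraries and passed the filter on low counts. Each level is in CPM, a count divided by the library total on one shared scale, with TMM factors correcting for composition. Differences are log2 ratios of knockout to wildtype, each with its standard error. The deletion was not visible in the level of its own gene. Cdc73 measured 14.4 ± 0.378 CPM in knockout and 18.3 ± 4.84 in wildtype (SD, n = 3 each), with wildtype 2 (12.8 CPM) below every knockout library, although counts over the whole gene need not show a deletion of some exons. The directions below therefore refer to libraries as labelled. Markers of the osteoblast were abundant in all libraries, at a summed 237000 to 351000 CPM in knockout and 282000 to 307000 in wildtype, a sum carried by the collagen genes Col1a1 and Col1a2. By gene, 10 of the 12 osteoblast markers had negative fold changes (median -0.35), where 50.7% of all genes did. Among the 10 was the osteoblast transcription factor Sp7 (-0.62 ± 0.19). At an unadjusted p under 0.05, 3 of the 12 were lower (6.35% of all genes). Among the lists for other cells, the suture fibroblast list went both ways, with 5 positive and 3 negative genes (median 0.12) and 1 higher at that level. The other 5 lists had positive fold changes in every tested gene. Higher at that level were 12 of 12 chondrocyte genes (median 2.13), 7 of 10 endothelial (1.29) and 10 of 11 macrophage (1.2). So were 5 of 8 neutrophil (1.6) and 1 of 6 erythroid genes (1.57), against 8.26% of all genes tested. All 12 chondrocyte markers had positive fold changes, with a summed level of 11800 to 26600 CPM in knockout and 3550 to 10100 in wildtype. The same held for all 10 endothelial markers (130 to 225 against 51.3 to 131 CPM), all 11 macrophage markers (160 to 374 against 91.4 to 136), all 8 neutrophil markers (55 to 185 against 20 to 54.1) and the 6 erythroid markers that could be tested (50.7 to 404 against 17.5 to 115 over all 8 that were matched). At 0 counts in wildtype 2 were the neutrophil gene Elane and the erythroid genes Alas2, Gata1 and Klf1. The part of these cell types and of the osteoblast markers in the results below was not tested, and in bulk RNA fewer cells of a type cannot be told apart from less RNA per cell.

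The promoters of the 48 genes were searched first, because the E2F site is the element best known from many of them. RefSeq windows of 300 bases (250 before to 50 after a transcription start, build GRCm38.p6) were at hand for 39 of the 48. An E2F site was counted where TTTCCCGC, TTTGGCGC, TTTCGCGC or TTTGCCGC stood on either strand. Such a match was present in 15 of the 39 genes (38.5%), against 4.71% of the 10380 tested genes with a window and 1 of 19 mitosis and spindle genes (5.26%). The CHR letters TTTGAA gave the opposite pattern, with a match in 6 of 39 replication genes (15.4%), 14 of 19 mitotic genes (73.7%) and 14.1% of tested genes. CCAAT, the box bound by NF-Y, was found in 64.1% of the replication genes, 84.2% of the mitotic genes and 43% of tested genes. Of the 21 E2F matches in the replication windows, 1 overlapped a match to another of these motifs, and 2 pairs of E2F matches overlapped each other. These are matches of letters and not measured binding.

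**Figure D1:**
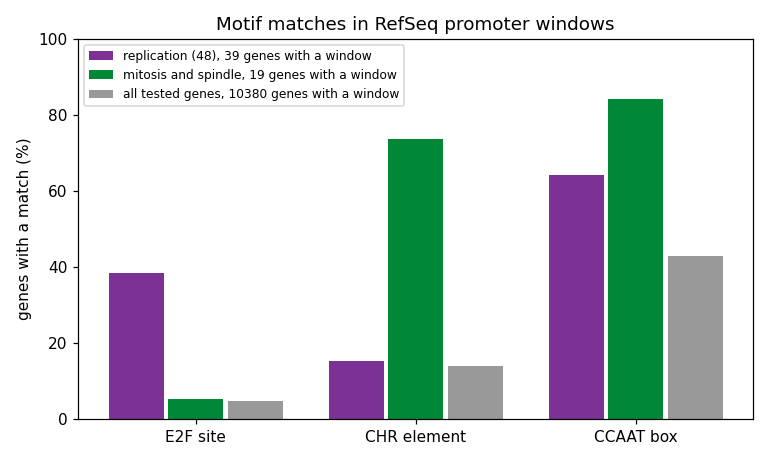
Share of genes (%) with at least 1 match to each motif on either strand of their RefSeq promoter windows, for the replication genes, the mitosis and spindle genes and all tested genes. The E2F bar stands at 38.5% for replication genes and 5.26% for mitotic genes, and the CHR bar at 15.4% and 73.7%.

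Below are the 250 bases before the start for 6 genes, 5′ to 3′ on the strand of the gene, with E2F letters in capitals. Mcm6 and Gins3 had matches and were lower in every knockout library, Cdc6 and Orc1 had matches and were not, and Tk1 and Tyms had some of the most negative fold changes and no match in the window.
Mcm6, chr1:128359706-128359955, minus strand: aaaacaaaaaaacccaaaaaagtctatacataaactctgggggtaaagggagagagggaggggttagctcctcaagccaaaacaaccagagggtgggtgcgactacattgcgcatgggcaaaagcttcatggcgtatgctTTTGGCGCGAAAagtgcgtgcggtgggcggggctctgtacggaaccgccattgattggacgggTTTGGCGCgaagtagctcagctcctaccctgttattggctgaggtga
Gins3, chr8:95633309-95633558, plus strand: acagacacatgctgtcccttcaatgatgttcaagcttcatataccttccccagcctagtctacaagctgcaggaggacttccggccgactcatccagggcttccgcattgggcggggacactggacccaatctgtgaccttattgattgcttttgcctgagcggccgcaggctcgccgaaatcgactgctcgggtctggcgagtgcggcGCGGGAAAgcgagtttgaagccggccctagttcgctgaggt
Cdc6, chr11:98907901-98908150, plus strand: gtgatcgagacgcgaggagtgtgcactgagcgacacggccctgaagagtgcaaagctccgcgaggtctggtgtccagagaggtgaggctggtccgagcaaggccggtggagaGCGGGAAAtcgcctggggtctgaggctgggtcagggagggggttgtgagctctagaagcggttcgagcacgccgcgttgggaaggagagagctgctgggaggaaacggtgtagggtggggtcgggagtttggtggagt
Orc1, chr4:108579204-108579453, plus strand: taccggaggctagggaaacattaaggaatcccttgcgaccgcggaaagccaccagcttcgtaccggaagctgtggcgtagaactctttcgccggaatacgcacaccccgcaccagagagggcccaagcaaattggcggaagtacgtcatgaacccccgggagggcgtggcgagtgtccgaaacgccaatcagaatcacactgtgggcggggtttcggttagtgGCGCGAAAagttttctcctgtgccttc
Tk1, chr11:117826015-117826264, minus strand: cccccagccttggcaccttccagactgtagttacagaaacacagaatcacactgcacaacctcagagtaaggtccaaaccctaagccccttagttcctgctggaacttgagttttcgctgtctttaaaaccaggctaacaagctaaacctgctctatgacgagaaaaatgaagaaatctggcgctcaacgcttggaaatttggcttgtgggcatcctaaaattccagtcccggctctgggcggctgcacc
Tyms, chr5:30073626-30073875, minus strand: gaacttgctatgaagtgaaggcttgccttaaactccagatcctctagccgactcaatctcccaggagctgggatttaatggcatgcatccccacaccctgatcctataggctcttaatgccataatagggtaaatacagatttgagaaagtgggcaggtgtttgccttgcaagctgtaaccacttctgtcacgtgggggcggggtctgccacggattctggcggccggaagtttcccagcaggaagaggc
Mcm6 held 3 matches in this stretch, 2 of which overlap. The match of Gins3 began 41 bases before the start and that of Orc1 27 bases before it. The stretches of Cdc6 and Orc1 lie inside the bounds of their genes, so each gene extends upstream of the start used here. Those bounds are 98907709 to 98923942 on chromosome 11 for Cdc6 and 108575705 to 108616030 on chromosome 4 for Orc1. E2F matches were about as frequent among members with an unadjusted p under 0.05 (4 of 11 genes with a window, 36.4%) as among the others (11 of 28, 39.3%). CCAAT matches were present in 4 of those 11 (36.4%) and 21 of those 28 (75%), a split that was not tested.

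Across the 48 genes, levels lay lower in the knockout libraries, by a small amount, and no gene passed the test. The median log2 fold change was -0.32, against -0.01 over all 13505 genes tested, and 41 of 48 were negative (85.4%, where 50.7% of all genes were). In edgeR's quasi-likelihood test 0 of 48 passed after Benjamini-Hochberg adjustment, as did 0% of all genes, and the smallest adjusted p of a member was 0.273, for Tk1. At an unadjusted p under 0.05, 13 members were lower (27.1%, against 6.35% of all genes) and 0 were higher (against 8.26%). In 16 members every knockout library lay below every wildtype library (33.3%, against 9.81% of all genes), and in 0 every one lay above (against 10.6%). DESeq2 called 0 members, where it called 1.61% of all genes as higher and 0.23% as lower, and limma voom called 0 members and 0 genes. The number of members lower at an unadjusted p under 0.05 was 3 without knockout 2 (1.66% of all genes), 5 without knockout 3 (4.73%) and 5 without wildtype 2 (5.37%). It was 22 with scaling by library size alone, where 18.4% of all genes were lower at that level and the median of all genes was -0.21.

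**Figure D2:**
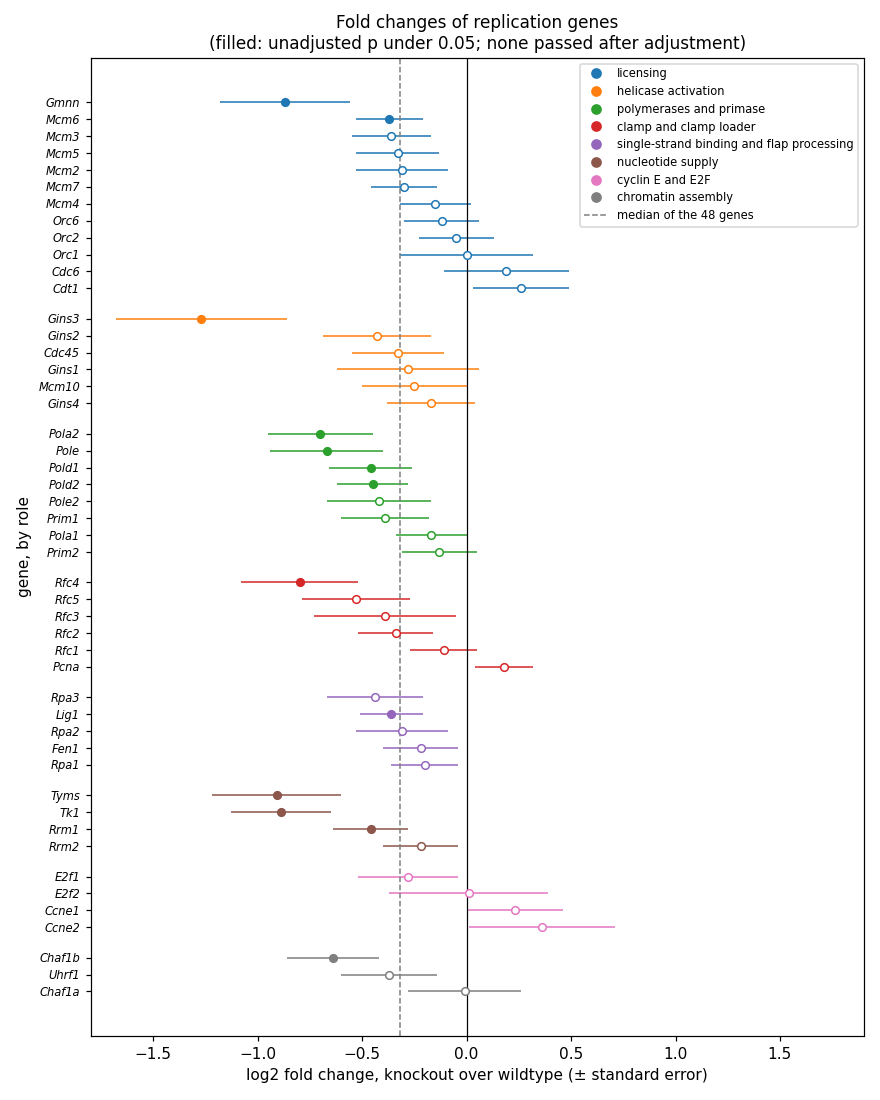
Log2 fold change of knockout over wildtype ± standard error (x axis) for each of the 48 genes (y axis), grouped and coloured by role. Filled points have an unadjusted p under 0.05, the dashed line is the median of -0.32, and all filled points lie left of 0.

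**Figure D3:**
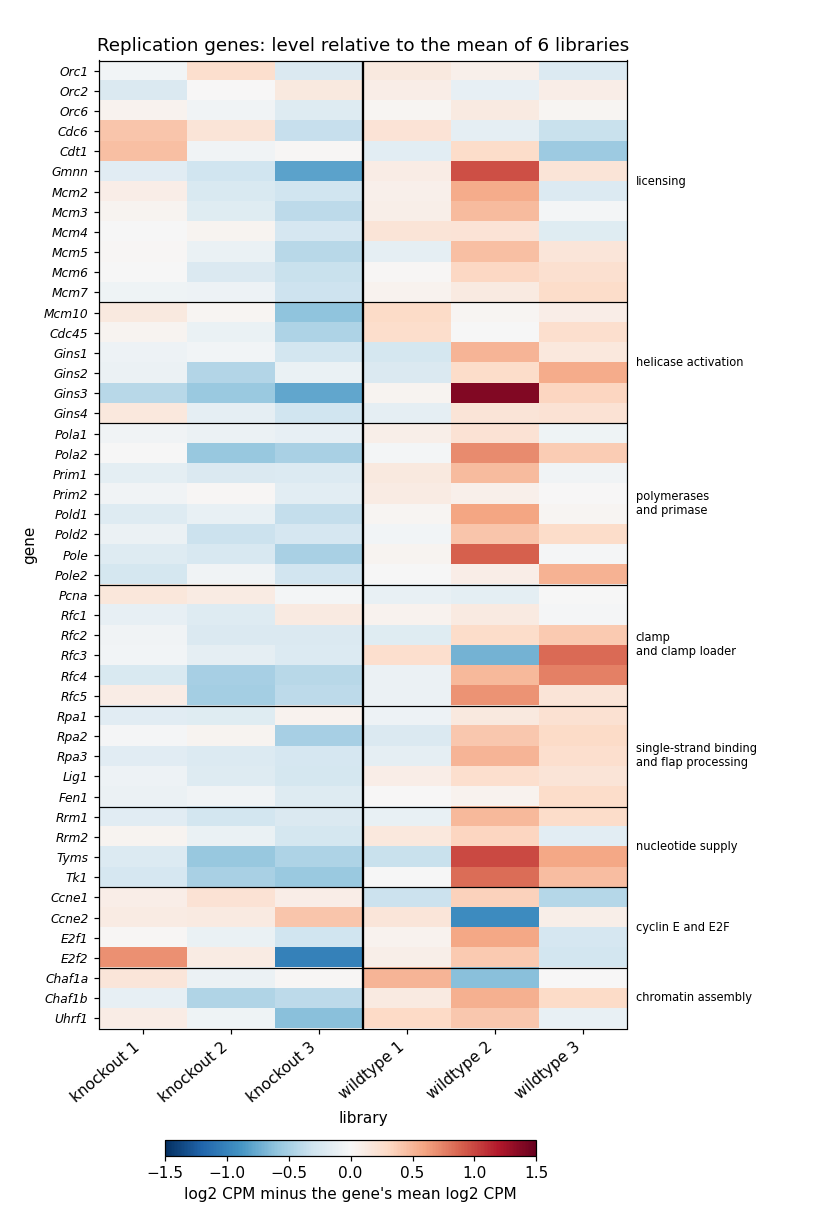
Level of each of the 48 genes (rows, by role) in each library (columns), as log2 CPM minus the mean of that gene over the 6 libraries. Wildtype 2 is the reddest column and knockout 3 the bluest, and the rows of cyclin E and E2F show no common pattern.

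Genes for nucleotide supply had the lowest median of the 8 roles, at -0.68, with all 4 negative. At an unadjusted p under 0.05, 3 of them were lower (6.35% of all genes). That number was 1 without knockout 2 (1.66%) and 1 without wildtype 2 (5.37%). Tk1, thymidine kinase, which salvages thymidine (gene ID 21877, chromosome 11, 117815519 to 117826087), measured 8.34, 7.09 and 6.75 CPM in knockout 1 to 3, whereas wildtype 1 to 3 gave 9.92, 17.8 and 13.7 CPM. Values below follow this order of libraries. Every wildtype library was above every knockout library, with wildtype 1 nearest to them. The log2 fold change was -0.89 ± 0.24 (adjusted p = 0.273 in edgeR's quasi-likelihood test). Tyms, thymidylate synthase, which makes dTMP anew (gene ID 22171, chromosome 5, 30038546 to 30073645), measured 10.2, 7.92 and 8.56 CPM in knockout and 9.31, 23.4 and 17.6 in wildtype. Here wildtype 1 lay within the knockout range, and the difference (-0.91 ± 0.31) came from wildtype 2 and 3. A processed copy in the same table, Tyms-ps, took 16 to 21 counts in knockout and 37 to 52 in wildtype, beside 104 to 170 and 213 to 337 for Tyms, and reads could have been split between both. Without wildtype 1 both genes passed edgeR's test, Tyms at -1.22 ± 0.21 (adjusted p = 0.0367) and Tk1 at -1.10 ± 0.21 (adjusted p = 0.0409). In that fit 0.832% of all genes were called lower, and the controls are the pair of libraries with the lowest chondrocyte and endothelial markers. DESeq2 on the same libraries called 5 members lower (4.07% of all genes), which were Tk1, Tyms, Rrm1, Gins3 and Rfc4.

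Ribonucleotide reductase, which turns ribonucleotides into deoxyribonucleotides, is built from the products of Rrm1 and Rrm2. Rrm1, the large subunit, measured 44.1, 41.2 and 42.9 CPM in knockout and 46.2, 70.0 and 60.3 in wildtype (-0.46 ± 0.18). The knockout libraries were close to each other and all lay below wildtype 1, which was again the lowest wildtype library. Rrm2, the subunit whose level follows S phase, measured 24.3, 22.2 and 19.7 against 26.4, 29.7 and 21.3 CPM with overlapping groups (-0.22 ± 0.18).

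All 8 genes of polymerases and primase were negative (50.7% of all genes were), with a median of -0.43. Of these, 4 were at an unadjusted p under 0.05 (6.35% of all genes were lower at that level). Between groups, 5 had no overlap (9.81% of all genes in that direction). The 4 became 0 without knockout 2 (1.66% of all genes), without knockout 3 (4.73%) and without wildtype 2 (5.37%), with all 8 still negative. Pold2, the accessory subunit of polymerase delta, measured 22.6, 19.2 and 20.2 CPM in knockout and 23.4, 32.2 and 29.2 in wildtype (-0.45 ± 0.17). The catalytic subunit Pold1 measured 15.7, 16.7 and 14.1 against 18.4, 27.2 and 18.4 CPM (-0.46 ± 0.20), so that both delta subunits were lower in every knockout library. Pole, the catalytic subunit of polymerase epsilon, measured 9.66, 9.31 and 7.90 against 11.4, 20.5 and 10.9 CPM (-0.67 ± 0.27), and wildtype 2 alone stood far above the rest. Its partner Pole2 measured 4.44, 5.14 and 4.36 against 5.29, 5.70 and 7.64 CPM (-0.42 ± 0.25). Prim1, the catalytic subunit of primase, measured 8.10, 7.71 and 7.73 against 9.88, 12.4 and 8.60 CPM (-0.39 ± 0.21), and neither gene overlapped between groups. Pola2, the regulatory subunit of polymerase alpha, measured 8.76, 5.91 and 6.25 against 8.61, 14.3 and 11.4 CPM (-0.70 ± 0.25), with knockout 1 above wildtype 1. The polymerase alpha catalytic subunit Pola1 (-0.17 ± 0.17) and the large primase subunit Prim2 (-0.13 ± 0.18) differed by no more than 1 standard error.

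In helicase activation all 6 genes were negative (median -0.31), from -0.17 for Gins4 to -1.27 for Gins3. Gins3, a GINS subunit (gene ID 78833, chromosome 8, 95633559 to 95645059), had the largest fold change of the 48 genes and low counts. It took 37, 29 and 21 counts in knockout and 70, 112 and 62 in wildtype, or 2.22, 2.02 and 1.73 against 3.06, 7.79 and 3.70 CPM. All wildtype libraries were higher and wildtype 2 most of all. The fold change was -1.27 ± 0.41, and it was -0.77 without wildtype 2. Gins1 (-0.28 ± 0.34), Mcm10, which aids helicase start (-0.25 ± 0.25), and Cdc45 (-0.33 ± 0.22) overlapped between groups. Of the exon bases of Gins2 (-0.43 ± 0.26), 70.7% are shared with Gse1 on the opposite strand, and the strand setting of the counting is not given in the sources used here, so its reads are uncertain.

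The 12 licensing genes had a median of -0.22. The 6 subunits of the Mcm2 to Mcm7 ring were all negative, between -0.15 ± 0.17 for Mcm4 and -0.37 ± 0.16 for Mcm6. Mcm6 (gene ID 17219, chromosome 1, 128331575 to 128359705) measured 37.2, 32.1 and 29.6 CPM in knockout and 37.9, 46.3 and 44.0 in wildtype. Knockout 1 and wildtype 1 almost met, and the other libraries were well apart. Mcm7 measured 22.5, 22.2 and 18.9 against 24.3, 25.7 and 28.4 CPM (-0.30 ± 0.16), also without overlap. Mcm5 measured 30.7, 28.2 and 22.7 against 27.5, 41.2 and 34.2 CPM (-0.33 ± 0.20), and Mcm2 27.9, 22.2 and 21.1 against 27.4, 38.3 and 22.6 CPM (-0.31 ± 0.22). In both, wildtype 1 lay below knockout 1. Scaled by exon length, the 6 subunits stood at similar wildtype levels, from 8.12 CPM per kb for Mcm4 to 10.8 for Mcm3, and in knockout from 7.04 for Mcm2 to 8.40 for Mcm3.

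Fold changes of the factors that load the ring lay near or above 0. Cdc6, the loading ATPase, measured 5.58, 4.80 and 3.29 CPM in knockout and 4.85, 3.83 and 3.34 in wildtype (0.19 ± 0.30). Cdt1, the loading partner, measured 30.3, 21.5 and 22.5 against 20, 27 and 15.3 CPM (0.26 ± 0.23, and 0.07 with scaling by library size alone). The groups overlapped for both, and knockout 1 was the highest library. The origin recognition subunits Orc1 (0.00 ± 0.32), Orc2 (-0.05 ± 0.18) and Orc6 (-0.12 ± 0.18) were within 1 standard error of no difference, and 24% of the exon bases of Orc2 are shared with Nif3l1 on the opposite strand. Gmnn, which encodes the Cdt1 inhibitor geminin (gene ID 57441, chromosome 13, 24751845 to 24761937), had a fold change of the opposite sign to Cdt1. It measured 4.56, 4.17 and 2.96 CPM in knockout and 5.55, 10.1 and 5.91 in wildtype, without overlap and with wildtype 2 highest (-0.87 ± 0.31, adjusted p = 0.302 in edgeR's quasi-likelihood test). Neither the difference between Gmnn and Cdt1 nor that between ring and loaders was tested.

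**Figure D4:**
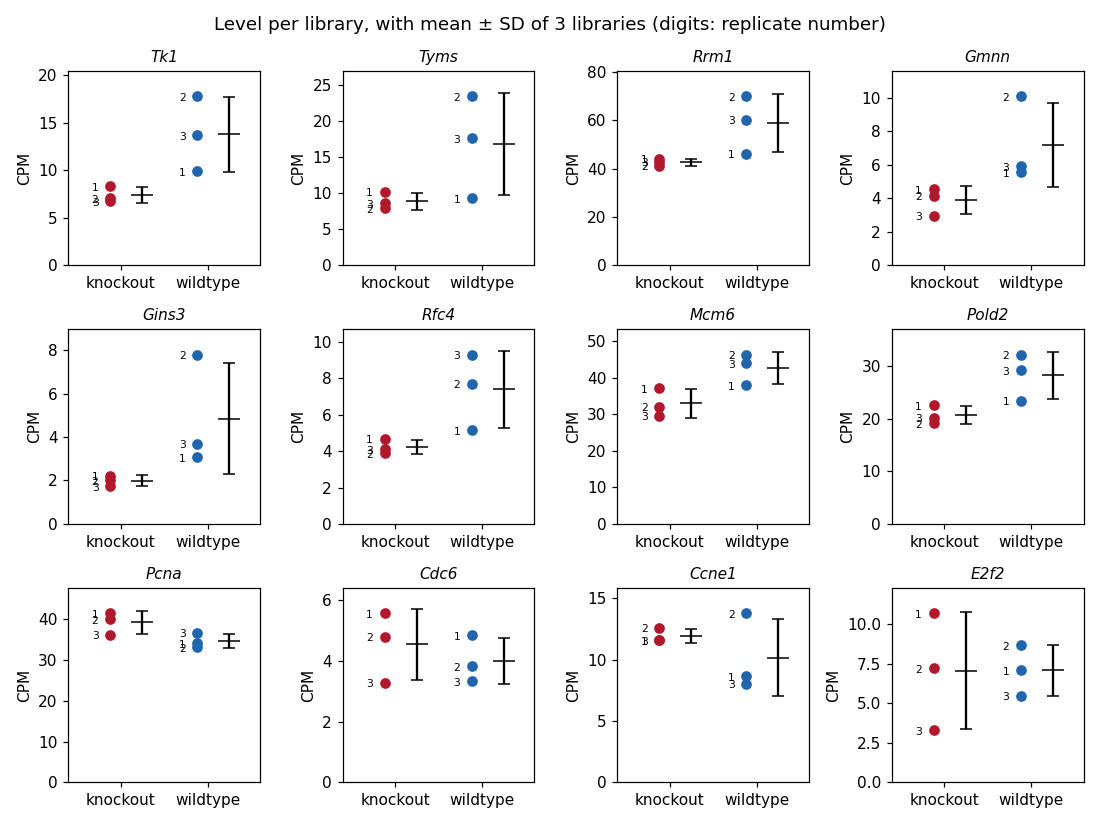
CPM (y axis, from 0) of 12 genes in each library, with the replicate number beside each point and the mean ± SD of 3 libraries as bars. In the upper 8 panels wildtype 2 or 3 is the highest point and wildtype 1 the wildtype library nearest to, or within, the knockout range, whereas the groups of the lower 4 panels overlap.

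Pcna, the sliding clamp and the most abundant of the 48 genes per length at 24.4 CPM per kb over both groups (gene ID 18538, chromosome 2, 132249286 to 132253180), measured 41.5, 40 and 36.2 CPM in knockout and 34.2, 33.2 and 36.7 in wildtype. Only wildtype 3 reached the knockout range, and the difference was 0.18 ± 0.14 (-0.02 with scaling by library size alone). The 5 loader subunits were all negative. Rfc4 measured 4.68, 3.89 and 4.11 against 5.16, 7.72 and 9.31 CPM (-0.80 ± 0.28), without overlap. Of its exon bases, 13.4% are shared with Eif4a2 on the opposite strand. Rfc5 (-0.53 ± 0.26), Rfc2 (-0.34 ± 0.18) and Rfc1 (-0.11 ± 0.16) overlapped, and so did Rfc3 (-0.39 ± 0.34), with 8.26, 4.24 and 12.5 CPM in wildtype. Per length, the wildtype levels of the loader subunits ran from 3.56 CPM per kb for Rfc5 to 6.72 for Rfc1.

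Single-strand binding and flap processing genes were all negative (5 of 5, median -0.31). Lig1, the ligase that joins lagging-strand fragments, measured 22.2, 20.4 and 19.5 CPM in knockout and 25, 27.8 and 26.7 in wildtype (-0.36 ± 0.15). Its groups were tight and apart. Rpa3, the small subunit of the single-strand binding protein RPA, measured 6.12, 5.98 and 5.76 against 6.29, 9.81 and 8.18 CPM (-0.44 ± 0.23), and Fen1, the flap nuclease, 10.6, 10.9 and 9.87 against 11.3, 11.7 and 13.7 CPM (-0.22 ± 0.18). Both were apart by a narrow margin in wildtype 1, and 78.8% of the exon bases of Fen1 are shared with an antisense gene. The other RPA subunits, Rpa1 (-0.20 ± 0.16) and Rpa2 (-0.31 ± 0.22), overlapped.

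Cyclin E and E2F genes, which act upstream of the machinery, had a median of 0.12 (-0.06 with library size alone), and 0 of 4 reached an unadjusted p under 0.05. Ccne1, the cyclin that drives Cdk2 at the G1 to S transition, measured 11.6, 12.6 and 11.6 CPM in knockout and 8.66, 13.8 and 8.06 in wildtype (0.23 ± 0.23). Knockout libraries were alike, and wildtype 2 alone stood above them. Without wildtype 2 the difference was 0.50. Ccne2 measured 4.08, 4.10 and 5.02 against 4.24, 1.95 and 4 CPM (0.36 ± 0.35), where wildtype 2 was the lowest. The activator E2f1 measured 11.3, 10.4 and 9.05 against 11.6, 16.6 and 9.37 CPM (-0.28 ± 0.24). E2f2 measured 10.7, 7.23 and 3.29 against 7.08, 8.69 and 5.49 CPM (0.01 ± 0.38), the widest knockout spread of this role. Over the same knockout libraries the summed erythroid markers were 404, 323 and 50.7 CPM, and over wildtype 1, 2 and 3 they were 114, 17.5 and 115. Their part in the level of E2f2 was not tested.

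Among the chromatin assembly genes, Chaf1b, the middle subunit of the histone chaperone CAF-1, measured 6.72, 5.35 and 5.59 CPM in knockout and 8.04, 10.6 and 8.90 in wildtype (-0.64 ± 0.22), without overlap. Chaf1a, the large subunit of the same complex, differed by -0.01 ± 0.27, with wildtype at 16.7, 7.58 and 11.7 CPM. Of its exon bases, 33.6% are shared with Ubxn6 on the opposite strand. Uhrf1, which guides maintenance DNA methylation behind the fork, measured 17.8, 15.8 and 10.7 against 20.3, 21.8 and 15.3 CPM (-0.37 ± 0.23), with overlapping groups.

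The wildtype libraries differed in how many members lay above the knockout libraries. Of the 48 genes, 27 were above every knockout library in wildtype 1 (56.2%, where 24.4% of all tested genes were), 37 in wildtype 2 (77.1% against 36.4%) and 28 in wildtype 3 (58.3% against 39.4%). Against wildtype 1 alone, the members had a median of -0.19, 38 of 48 were negative (79.2%, against 48.2% of all genes), and 1 member was lower and 1 higher at an unadjusted p under 0.05 (1.69% and 3.45% of all genes), namely Chaf1a and Ccne1 (0.45). Those p-values take their spread from the knockout libraries, and wildtype 1 is assumed to vary like them. Without wildtype 1 the median was -0.40, and 19 members were lower at an unadjusted p under 0.05 (39.6%, against 13.9% of all genes). Mean log2 CPM over the 48 genes was 3.57, 3.44 and 3.31 in knockout and 3.62, 3.89 and 3.72 in wildtype, so that wildtype 1 and knockout 1 almost met. Chondrocyte markers, by the same measure, were 9.25, 8.43 and 8 in knockout, 7.76 in wildtype 1, and 5.30 and 5.53 in wildtype 2 and 3. The part of these markers in the result was not tested.

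**Figure D5:**
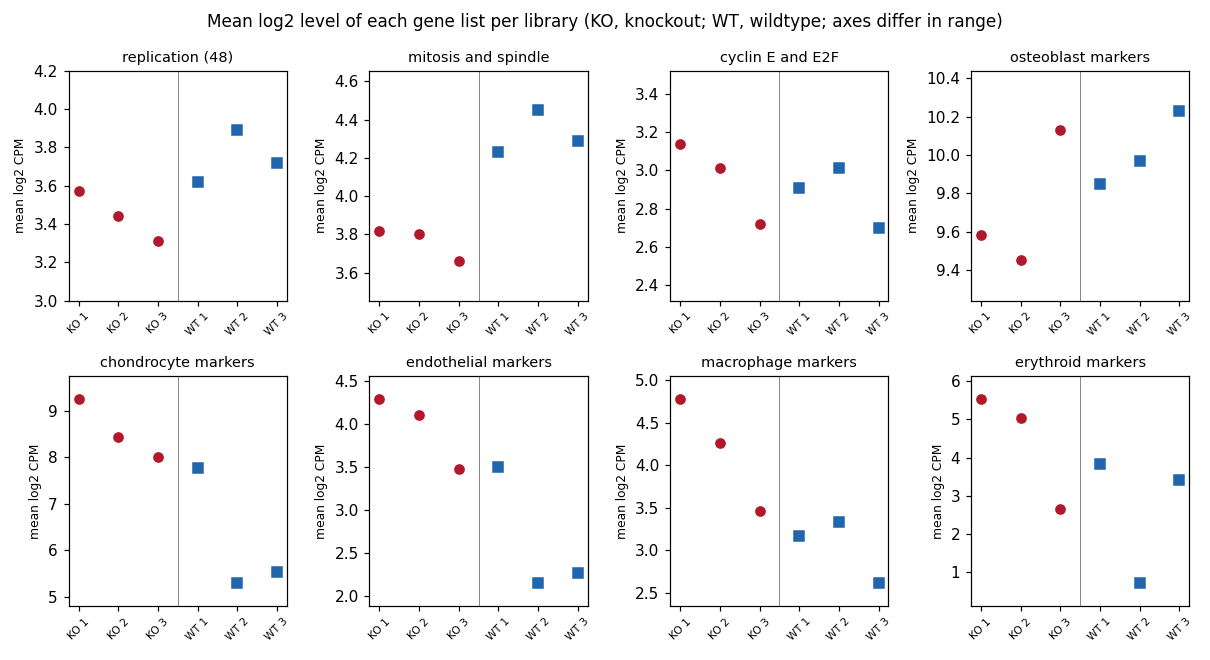
Mean log2 CPM of the tested genes of each list (y axes, which differ in range) in each library (x axis). Replication genes run from 3.31 to 3.57 in knockout and 3.62 to 3.89 in wildtype, mitotic genes from 3.66 to 3.82 and 4.23 to 4.45, and wildtype 1 lies nearer to the knockout libraries than wildtype 2 and 3 do in the chondrocyte and endothelial lists.

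Mitosis and spindle genes, measured in the same fit, had a median of -0.56. At an unadjusted p under 0.05, 17 of 22 were lower (6.35% of all genes). The number was 10 without knockout 3 (4.73% of all genes) and 11 without knockout 2 (1.66%). Above every knockout library were 21 of the 22 in wildtype 1, 21 in wildtype 2 and 20 in wildtype 3, while the replication genes gave 27, 37 and 28 of 48. Set against wildtype 1 alone, the mitotic genes had a median of -0.46. After adjustment, edgeR called 0 of the 22 with all 6 libraries. DESeq2 called 4 of them lower (0.23% of all genes) and 0 of the 48. Without wildtype 1, edgeR called 4 mitotic genes lower (0.832% of all genes) and 2 of the 48. DESeq2 without wildtype 1 called 9 and 5 (4.07% of all genes). The difference between the lists was not tested. Within the mitotic list Cdc20 (-0.89 ± 0.19), Plk1 (-0.88 ± 0.20), Kif2c (-1.16 ± 0.26) and Cdk1 (-0.74 ± 0.18) had the smallest p, and Mki67, a general marker of cycling cells, was the 1 positive gene (0.06 ± 0.20).

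A list of 40 other replication and S-phase genes was less uniform than the 48. It had 25 negative and 15 positive genes and a median of -0.21. Without knockout 2, 3 were lower at an unadjusted p under 0.05 (1.66% of all genes). Without knockout 3, 3 were lower (4.73%) and 1 higher (1148 of 13917 genes). Without wildtype 1, 10 were lower (13.9%) and 3 higher (2055 of 13823 genes). With all 6 libraries 6 were lower and 0 higher, against 6.35% and 8.26% of all genes. The lower ones included Chtf18, of an alternative clamp loader (5.24 ± 0.564 against 9.03 ± 1.81 CPM, -0.78 ± 0.24), Ccna2, the S-phase and G2 cyclin (-0.54 ± 0.17), Cdca7, a partner of the chromatin remodeller Hells (-1.02 ± 0.34), and the origin subunit Orc3 (-0.41 ± 0.16). The other 2 were the histone chaperone Asf1b (-0.67 ± 0.25) and Rnaseh2c (-0.61 ± 0.26). Of 17 E2F and pocket protein regulators 10 were negative, with a median of -0.09, and 0 reached an unadjusted p under 0.05. The 4 of smallest p were Rbl1 (-0.36 ± 0.20), E2f6 (0.32 ± 0.21), Lin37 (-0.58 ± 0.39) and E2f8 (-0.49 ± 0.36).

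CDK inhibitors, which hold cells before S phase, went both ways. Of 7 genes 6 could be tested, with a median of 0.16 (-0.05 with library size alone and -0.01 without wildtype 2). Cdkn1a, the p53 target p21, measured 254, 223 and 205 CPM in knockout and 176, 160 and 162 in wildtype, higher in every knockout library (0.45 ± 0.16, adjusted p = 0.293 in edgeR's quasi-likelihood test). Cdkn1c, p57, measured 275, 269 and 180 against 165, 186 and 159 CPM (0.51 ± 0.20), with knockout 3 inside the wildtype range. Cdkn2c, p18, was lower in every knockout library, at 7.56, 6.95 and 6.58 against 9.31, 15.1 and 9.20 CPM (-0.67 ± 0.24). Cdkn1b, p27, measured 29.5 ± 3.22 against 27.2 ± 4.60 CPM (0.11 ± 0.18).

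Replication-dependent histone genes, whose transcripts rise in S phase and end without a poly(A) tail, had positive fold changes in 14 of the 16 that could be tested, with a median of 0.54. The histone genes were scarce, at 73.5 to 112 summed CPM over 30 genes in knockout and 73.3 to 109 in wildtype. The largest part of that sum was H1f2, 1 of the 2 negative genes (41.3 ± 14.5 against 50.6 ± 15.7 CPM, -0.29 ± 0.28). H2bc18 measured 3.36, 4.73 and 2.80 against 1.79, 0 and 1.97 CPM, and H3c15 1.41 ± 0.583 against 0.71 ± 0.187 CPM (0.97 ± 0.54). In edgeR's test 0 of the 16 reached an unadjusted p under 0.05, and how RNA was selected for the libraries is not given in the sources used here.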

How the data were processed

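Per the submitters' processing notes, the authors used CASAVA version 1.7, Subread and featureCounts with build mm10. The deposited values are raw counts per gene ID, whole numbers without normalization, in 1 table of 27179 IDs by 6 libraries (0 columns unmapped). RefSeq for GRCm38.p6 named 25275 IDs, GENCODE M21 a further 18, and 1886 kept no name and stayed in totals and tests. The members and lists were chosen with earlier results of these data known.

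All 6 libraries were fitted with edgeR 4.0.16 in R 4.3.3 (filterByExpr, TMM factors of 0.813 to 1.09, quasi-likelihood F test, two-sided, no covariates). P-values were adjusted by Benjamini-Hochberg over all 13505 genes tested, with a threshold of 0.05. The biological coefficient of variation was 24.2%. CPM per kb used the union of GENCODE M21 basic exons. Fits were also run on simulated counts with the same spread for every gene, which checks the code and not these data. Alternatives used DESeq2 1.42.0, limma 3.58.1 voom with and without quality weights, robust edgeR estimates, other scaling factors and filters (none, or CPM of at least 1 in 3 libraries), the replicate number as a block, each library left out, and wildtype 1 as the only control. DESeq2 without wildtype 1 was added after seeing the data. Values per library are given for members with an unadjusted p under 0.05 or no overlap, the 4 of highest level per length, and Pcna, Mcm2, Mcm5, Cdc6, Cdt1, Gmnn, Ccne1, Ccne2, E2f1, E2f2, Rrm2, Tyms, Tk1 and Uhrf1. In the other lists up to 4 genes of smallest p are named, with Cdc73 and Mki67. Asf1b, Rnaseh2c, Sp7, Col1a1, Col1a2, Elane, Alas2, Gata1, Klf1, H1f2 and the wildtype values of Rfc3 and Chaf1a were chosen after they were seen.

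Exons of 17 members overlap another gene, in 4 of them over more than 20% of bases. In 15 the other gene is on the opposite strand, and because strand use is not given, such reads cannot be told apart. For Pole2 and Rpa1 it is on the same strand, where strand use would not separate reads.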

Additional observations from a re-analysis of the deposited data

How the results depend on the processing

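The median of the 48 genes stayed negative under all 18 alternatives. It was -0.51 with library size alone, where the median over all genes was -0.21, and this turned the split at an unadjusted p under 0.05 from 1116 higher and 858 lower into 475 and 2487. Leaving out 1 library gave medians of -0.42 to -0.24. Members with a negative fold change numbered 38 to 44. Members lower at an unadjusted p under 0.05 numbered 22 with library size alone, 1 with wildtype 1 as the only control and 3 to 19 with 1 library left out. Members higher at that level numbered 0 to 1 with 1 library left out (Ccne1, without wildtype 2, where 916 of 13828 genes were higher). After adjustment, 0 to 2 members passed with 1 library left out, and 5 (Gins3, Rfc4, Rrm1, Tk1 and Tyms) with DESeq2 without wildtype 1. Over all genes, 24 passed without a filter, 248 with DESeq2, 236 with the replicate block, 0 to 409 with 1 library left out and 1772 with DESeq2 without wildtype 1. In the other lists these numbers were 1 without a filter, 16 with DESeq2, 24 with the replicate block, 0 to 22 with 1 library left out and 46 with DESeq2 without wildtype 1. The cause was not tested.

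Of 29 members followed singly, 26 kept their sign throughout. Cdc6 was -0.09 with wildtype 1 as the only control and Pcna -0.02 with library size alone. E2f2, at 0.01, was -0.02 with upper-quartile factors, -0.15 with library size alone, -0.06 with limma voom, -0.1 with the replicate block, and between -0.43 and 0.33 with 1 library left out. Same-numbered libraries deviated together at r = 0.115, -0.074 and 0.222 and knockout 2 correlated best with wildtype 1 (0.347), so the replicate block rests on a shared number only. The block left 9 members lower at an unadjusted p under 0.05, where 709 of all 13505 genes were lower. Low counts limit genes such as Gins3 and Orc1, with 21 to 112 and 31 to 75 counts.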
